A study of Mus musculus with 8 samples.

Results

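TCR α-chain clonotypes that recurred in mice given anti-CD4 and were absent from the mice without it were collected from 8 α-chain libraries of endogenous CD8+ T (en-T) cells. A clonotype was defined by its CDR3 amino acid sequence, V segment and J segment, and it was kept when it was present in 3 or more of the 5 CTX_CD4 mice and in none of the 3 CTX mice. The rule kept 138 clonotypes of the 44635 found in the 8 libraries (0.309%). Among the 1432 clonotypes present in at least 3 mice of either group, these were 9.64%, a share that the rule itself sets. Presence and reads chose the clonotypes, so both are described below without a test.

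All 8 animals were female C57BL/6 mice aged 6 to 8 weeks that received B16F10 melanoma cells in the skin on day 0, 300 mg/kg cyclophosphamide on day 3, and Thy1.1 Pmel-1 cells on day 5 with daily IL-2. The CTX mice received nothing further, and the CTX_CD4 mice received 200 μg of the anti-CD4 antibody GK1.5 on days 10, 17 and 24. On day 25, Thy1.1-negative CD8+ cells were sorted from the lymph nodes and spleen of each mouse, so the transferred Pmel-1 cells, which carry a transgenic receptor, were gated out, and the samples hold cells of lymphoid tissue and not of the tumor. Each mouse gave 1 α-chain library of 10000 reads. The libraries contain only TCR transcripts, so markers of the sorted cells could not be checked. For CTX_CD4 mice 1 and 2, 28 nucleotide clonotypes had 10 or more reads in mouse 1 and were absent from the 6 remaining mice. Of these, 18 were also in CTX_CD4 mouse 2, whereas 0 to 4 were found in this way in the 55 other ordered pairs of mice. In the opposite direction, from CTX_CD4 mouse 2 to CTX_CD4 mouse 1, it was 0 of 14.

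The α chain is assembled in the thymus by joining 1 V segment to 1 J segment. Exonucleases trim the segment ends and terminal transferase may add nucleotides without a template, and the join lies in the CDR3, the loop that contacts the peptide held by an MHC molecule. Different joins can encode the same CDR3 amino acids. Joins that need few added nucleotides are made often, and the same receptor can therefore arise in unrelated mice; such receptors are called public. In this text, a nucleotide form is 1 CDR3 nucleotide sequence of a clonotype, and unassigned nucleotides are those between the end of V and the start of J in the deposited positions.

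The sequences below are shown because they separate the ways in which a clonotype could recur: by different nucleotide forms in different mice, or by 1 form in several. Each is the CDR3 from 5′ to 3′, with the unassigned nucleotides in capitals, and the mice named are CTX_CD4 mice. The first group holds clonotypes for which mice differed in their nucleotides.
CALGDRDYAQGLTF, TRAV6D-6 and TRAJ26, mice 1 and 2: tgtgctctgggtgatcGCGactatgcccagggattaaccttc
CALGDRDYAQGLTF, TRAV6D-6 and TRAJ26, mice 3 and 4: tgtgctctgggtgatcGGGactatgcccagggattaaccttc
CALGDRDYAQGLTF, TRAV6D-6 and TRAJ26, mouse 5: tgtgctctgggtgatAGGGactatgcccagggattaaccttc
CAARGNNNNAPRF, TRAV5-4 and TRAJ43, mouse 4: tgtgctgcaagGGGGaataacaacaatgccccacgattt
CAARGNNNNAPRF, TRAV5-4 and TRAJ43, mouse 5: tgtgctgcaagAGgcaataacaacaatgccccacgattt
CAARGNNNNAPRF, TRAV5-4 and TRAJ43, mouse 3: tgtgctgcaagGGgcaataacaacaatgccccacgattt
Clonotype of 14 residues, TRAV14N-1 and TRAJ30, mouse 1: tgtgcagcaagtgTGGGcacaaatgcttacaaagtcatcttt
Clonotype of 14 residues, TRAV14N-1 and TRAJ30, mouse 4: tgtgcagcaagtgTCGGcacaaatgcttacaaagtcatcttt
Clonotype of 14 residues, TRAV14N-1 and TRAJ30, mouse 3: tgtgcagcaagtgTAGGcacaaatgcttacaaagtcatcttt

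The clonotype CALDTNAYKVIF (TRAV16N and TRAJ30) had 6 nucleotide forms, the most of all 138, and no form was in more than 1 mouse.
Form in mouse 4, 24 reads: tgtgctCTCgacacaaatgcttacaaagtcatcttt
Form in mouse 1, 9 reads: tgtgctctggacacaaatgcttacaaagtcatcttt
First form in mouse 3, 2 reads: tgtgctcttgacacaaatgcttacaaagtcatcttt
Second form in mouse 3, 1 read: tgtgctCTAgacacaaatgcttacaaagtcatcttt
First form in mouse 5, 1 read: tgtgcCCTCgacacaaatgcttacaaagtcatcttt
Second form in mouse 5, 1 read: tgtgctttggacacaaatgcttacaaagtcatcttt
TRAJ30, reference, chr14:54189866-54189924, plus strand: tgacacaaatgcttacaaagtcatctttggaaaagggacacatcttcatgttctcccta
Last 40 bases of TRAV16N, reference, chr14:53351582-53351621, plus strand: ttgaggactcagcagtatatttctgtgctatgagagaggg

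In the last group, 1 nucleotide form was present in all mice that carried the clonotype.
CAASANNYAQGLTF, TRAV5-4 and TRAJ26, mice 1, 2 and 5: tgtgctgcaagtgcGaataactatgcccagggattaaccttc
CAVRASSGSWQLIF, TRAV1 and TRAJ22, mice 2, 4 and 5: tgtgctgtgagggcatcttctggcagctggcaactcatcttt
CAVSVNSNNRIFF, TRAV3N-3 and TRAJ31, mice 1, 2 and 3: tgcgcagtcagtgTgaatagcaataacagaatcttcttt
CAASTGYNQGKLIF, TRAV7D-2 and TRAJ23, mice 1, 2 and 5: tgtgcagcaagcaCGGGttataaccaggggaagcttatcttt

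The reference sequences and coordinates are those of GRCm38 with the GENCODE annotation, in which all 76 V and J names of the recurring clonotypes had a position. All lie on the plus strand of chromosome 14, in the Tcra locus, which also holds the δ-chain segments. A V segment listed there includes its leader exon and intron, and a J segment is 1 short exon. The 6 forms of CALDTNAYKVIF end in the same TRAJ30 bases and differ before them. Of the forms without capitals, the deposited positions carried the V segment across bases that do not match TRAV16N. By exact match to the reference, the form in mouse 1 had 3 unassigned nucleotides and the first form in mouse 3 had 2. Over all clonotypes the deposited positions and an exact match agreed within 1 nucleotide for 70.0% of forms.

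Anti-CD4 post conditioning was not accompanied by more recurring clonotypes than the mice gave when assigned to the groups in other ways. The labelled mice gave 138. The rule was applied to each of the 55 other assignments of the 8 mice to a group of 5 and a left-out group of 3, and these gave 126 to 230 clonotypes with a median of 173. Of them, 51 gave more than 138, 1 gave the same number and 3 gave fewer. The labelled number was therefore reached or passed in 53 of 56 assignments (p = 0.946, exact permutation over mice, one-sided). Counted from the other side, 5 of 56 assignments gave 138 or fewer (p = 0.0893, exact permutation, one-sided). The smallest one-sided p that 8 mice in groups of 3 and 5 allow is 0.0179.

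**Figure D1:**
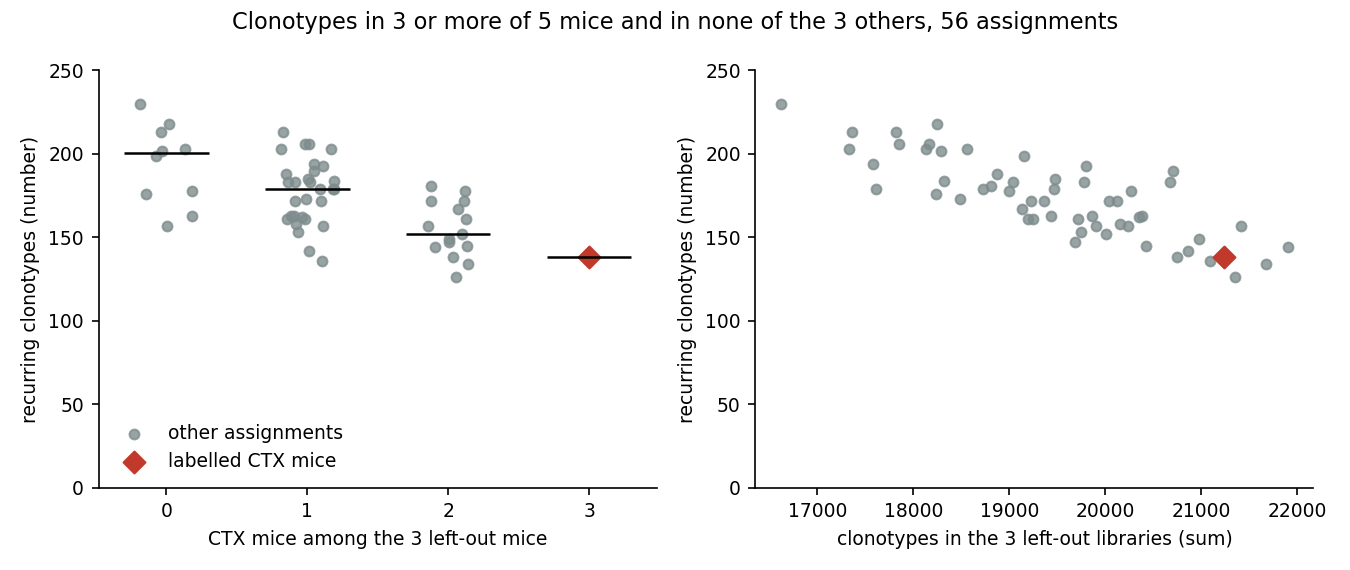
The number of recurring clonotypes (vertical axes) for the 56 assignments of the 8 mice, by the number of CTX mice among the left-out 3 (left; lines are medians) and by the clonotypes summed over the left-out libraries (right). The labelled assignment, with 138, lies among the lowest, and its left-out libraries hold 21236 clonotypes in sum.

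The number fell as more CTX mice were among the 3 left out. The median was 200.5 for the 10 assignments with no CTX mouse left out, 179 for the 30 with 1, 152 for the 15 with 2, and the labelled 138 had all 3 left out. The highest number, 230, came from leaving out CTX_CD4 mice 1, 4 and 5, and the lowest, 126, from leaving out CTX mice 1 and 3 with CTX_CD4 mouse 2. The number of clonotypes per library moved with these counts. CTX mice 1 to 3 had 7050, 7369 and 6817 clonotypes, and CTX_CD4 mice 1 to 5 had 5820, 7484, 6561, 5853 and 4947. Only CTX_CD4 mouse 2 exceeded all 3 CTX mice, and the other 4 CTX_CD4 mice had fewer clonotypes than any CTX mouse. The means were 7079 ± 277 (SD, n = 3) and 6133 ± 948 (SD, n = 5), a difference that did not pass the test (p = 0.25, adjusted p = 0.50 over 4 tests, exact two-sided Mann–Whitney test). The left-out CTX libraries summed to 21236 clonotypes, a sum reached in 5 of 56 assignments. The part of library diversity in the low count was not tested.

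The count was also taken apart into recurrence and absence. In 3 or more CTX_CD4 mice there were 492 clonotypes, the second lowest of 56 assignments (487 to 628 in the others). Of these 492, 28.0% were absent from all CTX mice, against 25.9% to 36.7% in the other assignments with a median of 30.5% (p = 0.821 for as high or higher, exact permutation, one-sided). For clonotypes in exactly 3 mice, the 10 trios of CTX_CD4 mice held 11.6 on average, from 4 in mice 1, 4 and 5 to 22 in mice 2, 3 and 4. The 30 trios with 1 CTX mouse held 14.4 on average, the 15 trios with 2 CTX mice held 17.6, and the CTX trio held 14.

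Because CTX_CD4 mice 1 and 2 shared clonotypes, the count was repeated with changes to these libraries. Of the 138, 43 were in mice 1 and 2 and in only 1 other mouse. When mice 1 and 2 were counted as 1 mouse, 95 clonotypes remained in 3 or more of 4 units. The other 34 assignments gave 47 to 159 (p = 0.571 for as many or more, exact permutation, one-sided). The joined unit held the reads of mice 1 and 2 together, whereas every other unit held 10000 reads. It was among the left-out mice in part of the other assignments but not in the labelled one. Depth was thus unequal between the units, so no conclusion is drawn from this p. Without mouse 1 the count was 69, within the 63 to 113 of the other assignments. Without mouse 2 it was 54, below all 34 other assignments (63 to 129; p = 0.0286 for as few or fewer, exact permutation, one-sided). When forms of mouse 1 were removed from mouse 2 wherever mouse 1 had more reads, 125 clonotypes remained, below the 126 to 230 of the other assignments (p = 0.0179 for as few or fewer, exact permutation, one-sided). This removal was chosen after seeing the data and took forms from a CTX_CD4 mouse only. It could lower the labelled count but not raise it, so no conclusion is drawn from this p.

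Most recurring clonotypes were present in the fewest mice that the rule allows. Of the 138, 116 were in 3 CTX_CD4 mice, 21 in 4 and 1 in all 5. CTX_CD4 mice 1 to 5 held 88, 102, 99, 72 and 76 of them, which was 15.1, 13.6, 15.1, 12.3 and 15.4 per 1000 clonotypes of the library. The clonotypes took 2.57% of the reads in mouse 1, 1.69% in mouse 2, 1.75% in mouse 3, 1.61% in mouse 4 and 1.91% in mouse 5. Mouse 1 had the highest share of reads but not the most clonotypes. Reads count transcripts, so more cells of a clone and more TCR RNA per cell cannot be told apart.

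The recurring clonotypes were scarce. Together they had 953 of the 50000 CTX_CD4 reads, from 3 to 39 per clonotype with a median of 5. In 25 clonotypes the recurrence rested on a single read in each of 3 mice. A single read made up 59.3% of all their occurrences, compared with 57.1% for other clonotypes in 3 to 5 mice and 74.2% for all clonotypes. Among clonotypes in exactly 3 mice the share was 61.2% for the recurring and 62.3% for the others. Only 15 of the 138 had 2 or more reads in at least 3 mice, and 5 had 3 or more. In 82 clonotypes, 1 mouse held at least 50% of the reads. The 21 clonotypes in 4 mice had 4 to 38 reads with a median of 7.

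Absence from the CTX mice was limited by depth in the same way. A count of 0 in 1 library of 10000 reads allows a share of up to 0.03%, and 0 of the 30000 CTX reads allows up to 0.01%. Of the 138 clonotypes, 58 had a mean share in the CTX_CD4 libraries above 0.01% and 80 did not, so for those 80 a lower share in CTX mice was not detectable at this depth. These limits cover counting error only, since reads of a nested PCR without molecular identifiers are not independent molecules.

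In all, 9 recurring clonotypes (6.52%) reached 10 reads in any mouse, compared with 3.11% of the 1156 clonotypes shared by 3 to 5 mice of which at least 1 was a CTX mouse, and 0.656% of all clonotypes. Among clonotypes in exactly 3 mice, 6.90% of the 116 recurring and 1.83% of the 710 others did so. The recurring clonotypes lay only in CTX_CD4 libraries, and the others lay in part in CTX libraries. Nucleotide clonotypes with 10 or more reads in 1 mouse and absent from 6 others numbered 3 to 8 in the CTX mice. In the CTX_CD4 mice they numbered 10 to 86. The part of this difference between libraries in the contrast was not tested. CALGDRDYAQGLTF (TRAV6D-6 and TRAJ26) was the single clonotype in all 5 CTX_CD4 mice, with 8, 1, 5, 3 and 1 reads in mice 1 to 5. Its CDR3 was in no CTX mouse under any segment name, and no CTX clonotype of the same V and J was 1 residue away. The 3 nucleotide forms divided the 5 mice as printed above, with 3 or 4 unassigned nucleotides each. The only read in mouse 2 was of the form with 8 reads in mouse 1, the library that shares clonotypes with mouse 2. Presence in all 5 mice therefore rests in part on that read.

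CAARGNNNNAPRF (TRAV5-4 and TRAJ43) had the most reads, with 0, 0, 1, 22 and 16 in CTX_CD4 mice 1 to 5. Mice 4 and 5 carried nearly all of them, each with its own nucleotide form, and no form was in 2 mice. No CTX library held this CDR3 under another name. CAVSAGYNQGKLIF (TRAV3N-3 and TRAJ23) had 0, 1, 6, 0 and 28 reads, again with no form in 2 mice. It had 4 nucleotide forms, of which mouse 5 held 2 with 25 and 3 reads. Its CDR3 was also absent from the CTX mice under other names, where clonotypes 1 residue away were found.

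The opposite arrangement was seen in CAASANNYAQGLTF (TRAV5-4 and TRAJ26), which had 36, 1, 0, 0 and 1 reads and a single nucleotide form. Mouse 1 held 94.7% of its reads. Mouse 2, the library that shares clonotypes with mouse 1, held 1 of the other 2. The same CDR3 was in CTX mice under other V names with 7 reads. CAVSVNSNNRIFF (TRAV3N-3 and TRAJ31) likewise had 1 form, with 16, 3, 2, 0 and 0 reads. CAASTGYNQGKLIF (TRAV7D-2 and TRAJ23) had 1 form with 6, 2, 0, 0 and 1 reads, although that form carried 4 unassigned nucleotides. All 3 of these single-form clonotypes were highest in mouse 1 and present in mouse 2.

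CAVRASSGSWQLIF (TRAV1 and TRAJ22) had 0, 18, 0, 4 and 1 reads, 1 form and no unassigned nucleotide. Its CDR3 was in all 3 CTX mice under other V names, with 1, 5 and 6 reads. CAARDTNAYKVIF (TRAV5N-4 and TRAJ30) had 7, 1, 0, 0 and 13 reads in 2 forms, 1 in mice 1 and 2 and another in mouse 5. Its only read in mouse 2 was thus of the form of mouse 1, the library that shares clonotypes with mouse 2. Its CDR3 was likewise in the 3 CTX mice under other V names, with 6, 7 and 2 reads. Both would have been dropped by a rule that used the CDR3 alone.

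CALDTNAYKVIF (TRAV16N and TRAJ30) had 9, 0, 3, 24 and 2 reads in CTX_CD4 mice 1 to 5. When the copies of the TRAV16 family were merged, the reads became 9, 0, 3, 24 and 61, and the 3 CTX mice still had 0. Thus mouse 5, low under the TRAV16N name, was the highest once the other copies of the family were added. The same CDR3 under V segments of other families was in every mouse, with 6, 6 and 4 reads in CTX mice 1 to 3. Over all V names the totals in CTX_CD4 mice 1 to 5 were 13, 10, 6, 34 and 65. These totals include the TRAV16N reads by which the rule chose the clonotype, so the groups are not compared on them.

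**Figure D2:**
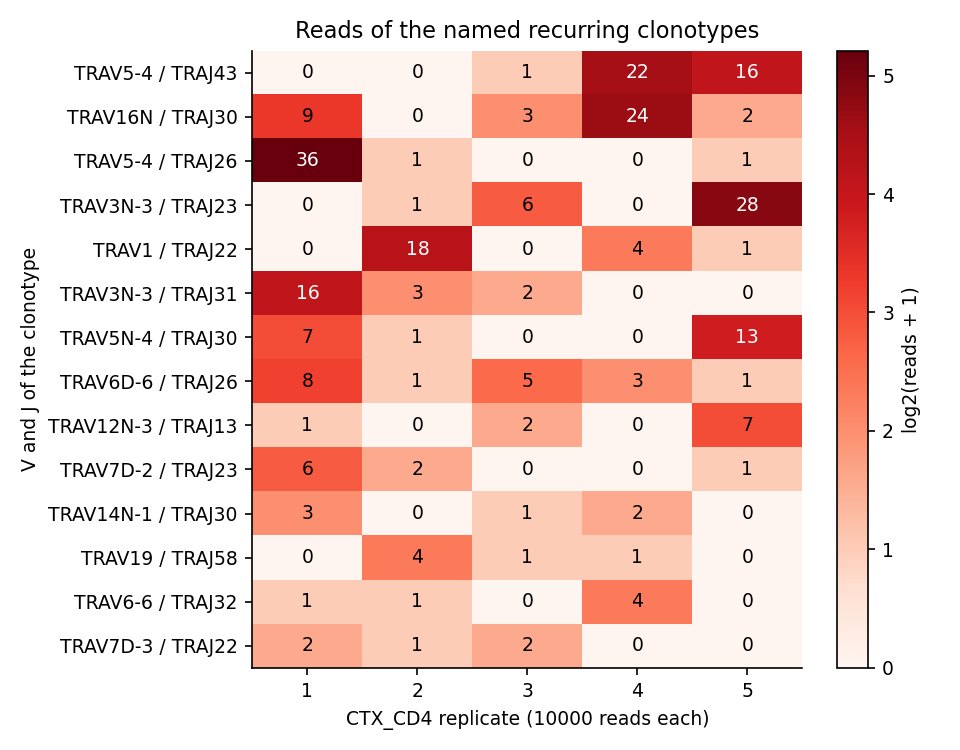
Reads in each CTX_CD4 library (columns, 10000 reads each) of the 14 named recurring clonotypes (rows, given by V and J), with color on the log2(reads + 1) scale and the read count in each cell. High counts sit in 1 or 2 mice per clonotype, as for the 36 reads of TRAV5-4 / TRAJ26 in mouse 1.

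The recurring clonotypes used 2.03 nucleotide forms on average (median 2), compared with 2.17 for the other clonotypes in 3 to 5 mice and 1.09 for all clonotypes. A single form was seen in 42, 2 forms in 58 and 3 or more in 38. In 50 clonotypes (36.2%) some form was present in every mouse that carried the clonotype, against 31.9% of the others in 3 to 5 mice. In 23 clonotypes (16.7%) no form was in more than 1 mouse, against 12.4% of the others. Among clonotypes in exactly 3 mice these shares lay closer, at 19.0% of the 116 recurring and 18.5% of 710 others without a shared form. Besides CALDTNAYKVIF, the clonotypes with most forms had 4 each: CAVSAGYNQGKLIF, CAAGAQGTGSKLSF (TRAV19 and TRAJ58), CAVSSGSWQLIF (TRAV7D-3 and TRAJ22) and a clonotype of 15 residues (TRAV6-6 and TRAJ32). Those last 3 had only 5 or 6 reads each, and each of their forms had 1 or 2 reads. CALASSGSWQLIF (TRAV12N-3 and TRAJ22) also had 4 forms but only 4 reads, and was not among the named because ties were broken by reads.

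Use of the same form was counted for each pair of CTX_CD4 mice. Mice 1 and 2 had 58 recurring clonotypes in common, and 37 of these (63.8%) had a form in both. In the other 9 pairs, 28 to 67 clonotypes were in common and 39.3% to 62.5% had a form in both. Mice 4 and 5 had the fewest in common and the lowest share, with 11 of 28.

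Few of the junctions held many added nucleotides. In the form with the most reads, 66 of the 138 clonotypes (47.8%) had no unassigned nucleotide, compared with 55.6% of the other clonotypes in 3 to 5 mice and 27.3% of all clonotypes. The mean was 1.09 unassigned nucleotides, against 0.888 and 2.42. By the deposited positions no such form exceeded 4, and 11 (7.97%) had 4. More than 3 were found in 4.50% of the other clonotypes in 3 to 5 mice and in 27.9% of all clonotypes. In 4 recurring clonotypes another form had more than 4, up to 7. Against others in exactly 3 mice the values were closer, with no unassigned nucleotide in 50% of the 116 recurring clonotypes and 50.8% of the 710 others. More than 3 were found in 9.48% of these 116 and 6.62% of these 710. By exact match to the reference the means were 1.83, 1.54 and 3.43 for recurring clonotypes, the others in 3 to 5 mice and all clonotypes, in the same order as from the deposited positions, and 7 recurring clonotypes had more than 4, up to 8. The shares without an unassigned nucleotide were lower by exact match, at 27.5%, 33.0% and 9.93% for these 3 sets. The 5 clonotypes with the most unassigned nucleotides by the naming rule all had 4: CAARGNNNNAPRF, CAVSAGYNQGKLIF, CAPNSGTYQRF (TRAV12N-3 and TRAJ13; 1, 0, 2, 0 and 7 reads), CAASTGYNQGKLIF, and the clonotype of TRAV14N-1 and TRAJ30 printed above (3, 0, 1, 2 and 0 reads).

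**Figure D3:**
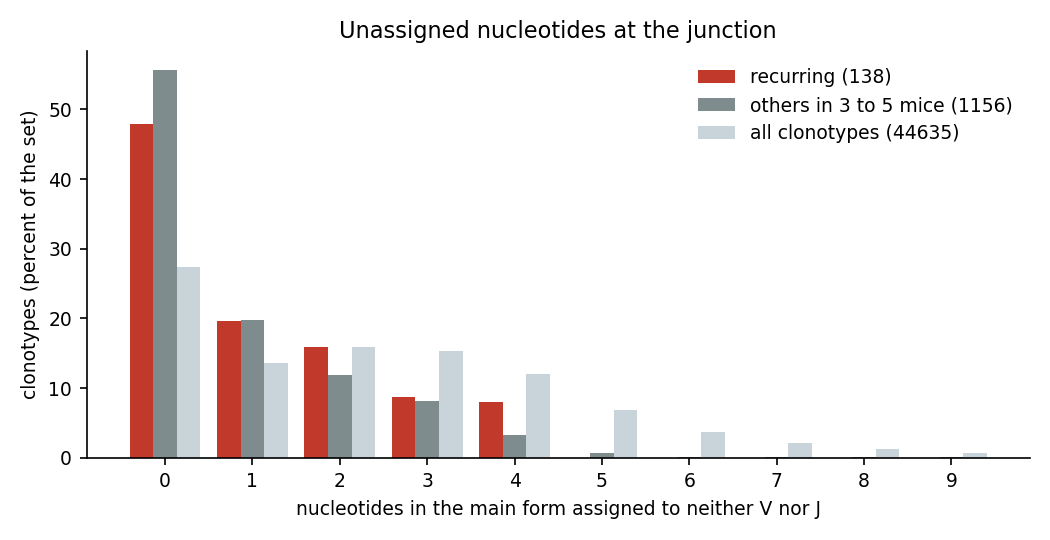
Share of clonotypes (percent of each set) by the number of unassigned nucleotides in the form with most reads, from 0 to 9, for the 138 recurring clonotypes, the 1156 others in 3 to 5 mice and all 44635. The recurring clonotypes lie nearer to the other shared clonotypes than to all clonotypes, with 47.8% at 0 and none above 4 by the deposited positions.

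The CDR3 of the recurring clonotypes had 11 to 17 residues with a median of 14, which was also the median of the other shared clonotypes and of all clonotypes. In 132 of the 138 the CDR3 ran from cysteine to phenylalanine or tryptophan, the residues that usually bound the loop, and in 6 it ended otherwise.

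The recurring clonotypes were spread over many joins. They used 39 V names, 37 J segments and 119 V-J joins, and 104 of these joins held a single recurring clonotype. The joins with most held 3 clonotypes each and were TRAV16N with TRAJ9, TRAV12N-3 with TRAJ22, TRAV7D-2 with TRAJ7, and TRAV16N with TRAJ45. The fifth was TRAV3N-3 with TRAJ7, which had the most reads among the joins with 2. All 8 libraries together held 4105 joins.

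TRAV16 was the most frequent V family, with 32 of 138 clonotypes (23.2%), compared with 17.6% of the other clonotypes in 3 to 5 mice and 7.25% of all clonotypes. Its copies were TRAV16N (23 clonotypes; chr14:53351028-53351621) and TRAV16D-DV11 (9 clonotypes; chr14:53047287-53047821), which lie in duplicated stretches of the locus. The next V segments were TRAV14N-1 with 8 clonotypes and TRAV3N-3, TRAV5-4, TRAV6D-6 and TRAV12N-3 with 7 each. The TRAV14 family held 21 (15.2%, against 9.43% and 12.8%). The TRAV12 family held 12 (8.70%), below its 19.6% of other shared clonotypes and 13.9% of all. The TRAV7 family, to which the Pmel-1 α chain belongs, held 16 (11.6%), compared with 14.7% and 17.8%. No recurring clonotype joined TRAV11 to TRAJ18 or TRAV1 to TRAJ33, the joins of invariant natural killer T cells and of mucosal-associated invariant T cells. The share of these joins over all clonotypes is not given here, and TRAV1 with any J made up 0.612% of them. Their absence is therefore not read as a trait of the recurring clonotypes.

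**Figure D4:**
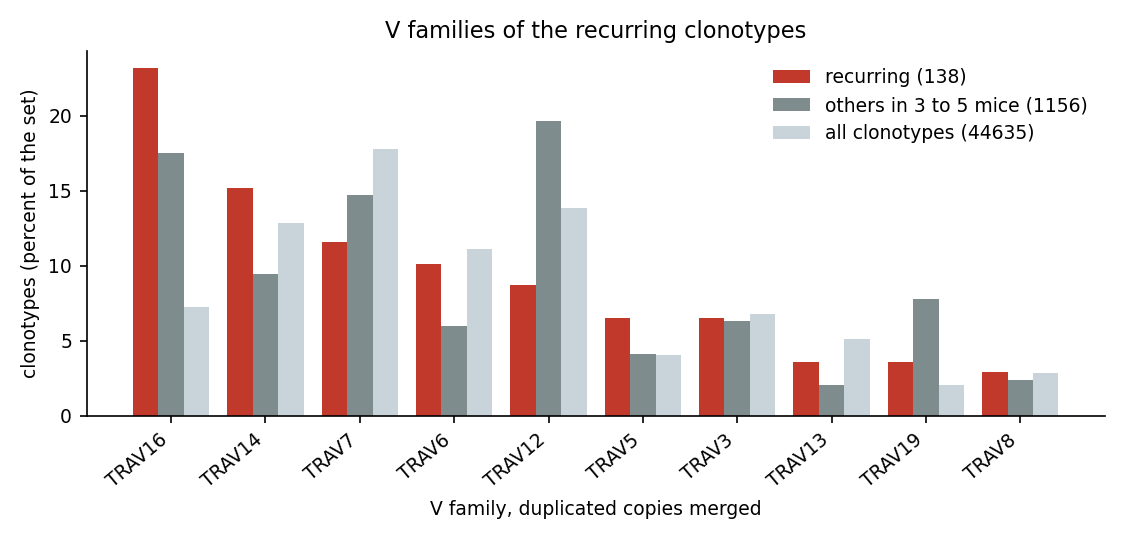
Share of clonotypes (percent of each set) in the 10 V families with most recurring clonotypes, duplicated copies merged, for the 138 recurring clonotypes, the 1156 others in 3 to 5 mice and all 44635. TRAV16 is highest among the recurring clonotypes at 23.2%, and TRAV12 is highest among the other shared clonotypes at 19.6%.

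Among J segments, TRAJ22 was used by 16 recurring clonotypes (11.6%, against 9.26% of the other shared clonotypes and 5.02% of all). TRAJ30 was used by 10 (7.25%, against 6.57% and 4.18%) and TRAJ26 by 8 (5.80%, against 7.09% and 4.61%). TRAJ45 was also used by 8 (5.80%, against 1.99% and 3.00%), a contrast with 23 of the other shared clonotypes. TRAJ23 was used by 7 (5.07%, against 6.31% and 4.32%). TRAJ33, TRAJ21 and TRAJ49 had 7 each as well. Their shares of the other shared clonotypes were 2.68%, 1.99% and 6.23%, and of all clonotypes 3.12%, 3.23% and 3.95%. The reference sequences of the most used J segments were as follows, shown because their 5′ ends supply the CDR3 residues common to the clonotypes named above.
TRAJ22, reference, chr14:54197248-54197307, plus strand: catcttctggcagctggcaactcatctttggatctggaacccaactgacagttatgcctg
TRAJ26, reference, chr14:54194490-54194549, plus strand: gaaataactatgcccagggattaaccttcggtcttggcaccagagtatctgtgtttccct

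Many of the CDR3 sequences were present in CTX mice under other segment names. For 92 of the 138 (66.7%) the same CDR3 was present in a CTX mouse under another V or J name, in all 3 CTX mice for 29, in 2 for 26 and in 1 for 37. In the other 55 assignments this share ran from 55.2% to 72.6% with a median of 63.2%. For 67 (48.6%) the same CDR3 was present with the same J and another copy of the same V family, against 38.3% to 52.6% with a median of 44.4%. For the remaining 25 it was present only with another J or V family. For 57 clonotypes a CTX library held one of their nucleotide forms under another name, a count given without values from the other assignments. V segments of 1 family can be nearly identical at the bases that a read covers, and how often the naming chose between such copies was not tested. With copies merged by family before the rule was applied, 252 clonotypes recurred, against 226 to 430 in the other assignments (p = 0.911 for as many or more, exact permutation, one-sided).

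By V family, all 12 TRAV12 clonotypes and 19 of the 21 TRAV14 clonotypes had their CDR3 in a CTX mouse, compared with 16 of the 32 TRAV16 clonotypes and 1 of the 5 TRAV19 clonotypes. The 46 clonotypes whose CDR3 was in no CTX mouse under any name had a median of 5 reads, the same as the other 92, and 22 of them (47.8%) had no unassigned nucleotide. Of the 9 clonotypes with 10 or more reads in a mouse, 3 were among the 46: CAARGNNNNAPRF, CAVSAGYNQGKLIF and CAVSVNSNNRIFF. A clonotype 1 residue away with the same V and J was present in a CTX mouse for 110 of the 138. For 12 clonotypes, neither the CDR3 nor such a neighbor was found in a CTX mouse. The counts by family and of neighbors are given without values from other clonotypes or other assignments. They are therefore not read as traits of the recurring clonotypes.

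At the edge of the rule, 1085 clonotypes were in 2 CTX_CD4 mice and no CTX mouse. The one with most reads, of 15 residues (TRAV7D-4 and TRAJ33), had 121 reads in mouse 1 and 9 in mouse 2, the libraries that share clonotypes. A further 153 clonotypes were in 3 or more CTX_CD4 mice and in 1 CTX mouse. The one with most reads, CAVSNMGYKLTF (TRAV7-3 and TRAJ9), had 31 reads in CTX mouse 1 and 1, 6 and 2 reads in CTX_CD4 mice 1 to 3. Just inside lay the 25 clonotypes with 1 read in each of 3 mice.

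The rest of each library was then compared, with the recurring clonotypes left out. The 3 measures used no read of those clonotypes, but the joins and sequences looked for came from clonotypes chosen in the same CTX_CD4 libraries, so the first 2 measures are described without a test. Other clonotypes in the same V-J joins took 14.69%, 13.97% and 14.31% of the reads in CTX mice 1 to 3 and 13.7%, 13.5%, 15.4%, 15.7% and 17.4% in CTX_CD4 mice 1 to 5. The CTX_CD4 mice lay on both sides of the CTX mice. The means were 14.3 ± 0.360% (SD, n = 3) and 15.2 ± 1.597% (SD, n = 5). The difference of 0.83 percentage points was within the spread of the CTX_CD4 mice and was 0.26 without CTX_CD4 mouse 5.

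Clonotypes 1 residue away from a recurring clonotype, with the same V and J, numbered 18.3, 16.01 and 17.7 per 1000 clonotypes in CTX mice 1 to 3. In CTX_CD4 mice 1 to 5 they numbered 18.5, 18.0, 18.3, 18.2 and 23.0, so that mice 1 and 5 lay above all CTX mice, mouse 1 by little, and the other 3 within their range. The means were 17.4 ± 1.19 (SD, n = 3) and 19.2 ± 2.14 (SD, n = 5), 1.83 apart. Without mouse 5 the difference was 0.88. Counted by reads, these neighbors took 2.12%, 1.94% and 2.22% in the CTX mice and 2.44%, 2.30%, 2.97%, 2.45% and 4.80% in the CTX_CD4 mice. By reads the groups did not overlap, and no p is given because the sequences looked for were present in CTX_CD4 and absent from CTX libraries by the rule. The CTX_CD4 libraries had fewer clonotypes at the same number of reads, and the part of this in the difference by reads was not tested.

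The mean number of unassigned nucleotides per nucleotide form was 2.24, 2.22 and 2.19 in CTX mice 1 to 3 and 2.21, 2.26, 2.23, 2.21 and 2.23 in CTX_CD4 mice 1 to 5. The means of 2.22 ± 0.0215 (SD, n = 3) and 2.23 ± 0.0190 (SD, n = 5) differed by less than the spread between mice (p = 0.786, adjusted p = 0.786, exact two-sided Mann–Whitney test).

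**Figure D5:**
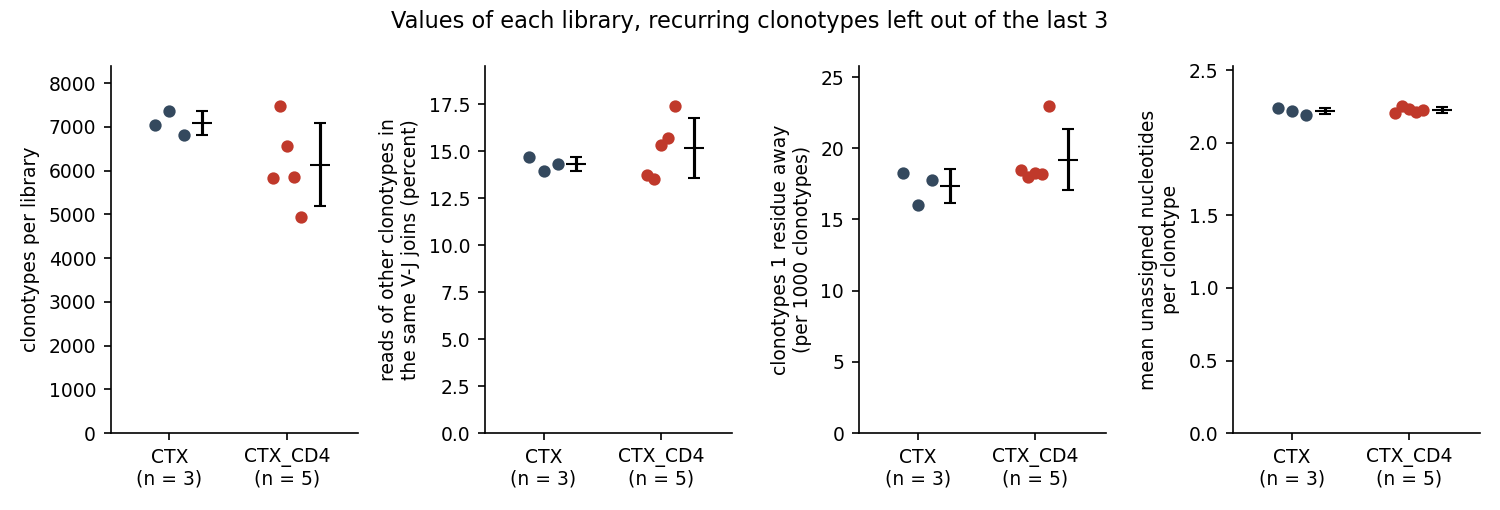
Values of each library in CTX (n = 3) and CTX_CD4 (n = 5) mice, with points for mice and bars for mean ± SD: clonotypes (number), reads of other clonotypes in the same joins (percent), clonotypes 1 residue away (per 1000) and mean unassigned nucleotides, taken over nucleotide forms. The groups overlap in all 4, and CTX_CD4 mouse 5 lies apart at 23.0 neighbors per 1000.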

How the data were processed

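TCR α-chain libraries of en-T cells from 3 CTX and 5 CTX_CD4 mice were analyzed, with groups and replicate numbers taken from the sample titles. The authors amplified TCR transcripts by nested PCR (SMARTer kit), sequenced them on a MiSeq, trimmed reads with Scythe and Sickle, aligned them in MiXCR, separated the chains with VDJtools and drew 10000 reads of every library. The deposited counts are whole reads per CDR3 nucleotide clonotype with no further normalization, and the deposited V-end and J-start positions count from 0 within the CDR3. V and J overlapped in 21.4% of α-chain nucleotide clonotypes, which count as 0 unassigned nucleotides. The MiXCR version is not given in the sources used here. The submitters' processing notes name mm10, so segments were looked up by name in the GENCODE annotation of GRCm38. β-chain libraries were not used here.

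Reads of 1 clonotype (CDR3 amino acids, V and J) were summed per mouse with Python 3.11.15, numpy 2.4.6 and pandas 2.3.3. The count of recurring clonotypes was ranked among the 56 assignments of the mice, and 4 values per mouse were compared by exact Mann–Whitney tests with Benjamini-Hochberg adjustment (scipy 1.17.1). Of these 4, the measures built on joins and sequences of the members are given without p, since the rule chose them in the CTX_CD4 libraries. Counting and tests were tested on simulated data. Properties were described without a test, since clonotypes are not replicates. The members, the lists and the tests were chosen with earlier results of these data known. Named clonotypes were those in 5 of 5 mice, the 8 with most reads, the 5 with most unassigned nucleotides, the 5 with most nucleotide forms, and 1 on either side of the threshold. Alternatives were other definitions of a clonotype, other thresholds of reads and mice, 5000 reads per library, and leaving out each mouse.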

Additional observations from a re-analysis of the deposited data

Results flagged for a closer look

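CTX_CD4 mouse 5 had 23.0 clonotypes per 1000 that were 1 residue away from a recurring clonotype, whereas the other 4 CTX_CD4 mice had 18.0 to 18.5. Its distance to the nearest mouse was 0.904 of the range of the group, above the limit of 0.71 for 5 samples (Dixon). In all, 6 values per mouse were examined and 1 passed, where chance marks about 1 in 20. The same mouse had the fewest clonotypes, 4947. Without it, the difference between the groups was 0.88 per 1000, compared with 1.83 with it.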

How the results depend on the processing

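The number of recurring clonotypes followed the definition. It was 272 with the CDR3 alone and 272 with the CDR3 and J, 252 with V copies merged by family, and 89 by nucleotide sequence. It was 1223 in 2 or more mice, 22 in 4 or more, 15 with 2 or more reads per mouse and 5 with 3 or more, and it averaged 66 at 5000 reads per library. Leaving out 1 mouse gave 54 to 195. The comparisons with removed forms, with 3 or more reads and with CDR3 and J were chosen after seeing the data. Over these 21 settings, the p for as many or more ran from 0.286 to 1, and that for as few or fewer from 0.0179 to 0.839 (exact permutation, one-sided). The latter was under 0.05 in 2 settings, without CTX_CD4 replicate 2 and with forms removed. Removal of forms could lower the labelled count but not raise it. The difference in neighbors, CTX_CD4 minus CTX, was 0.90 percentage points when counted by reads. The difference in unassigned nucleotides turned to -0.0043 without nucleotide forms of 1 read. By exact match to the reference, an alternative chosen after seeing the data, it turned to -0.0022. Leaving out 1 mouse gave -0.0011 to 0.020. With the replicate number as a block, the share of reads in the same joins turned to -0.12 (0.26 to 1.23 when 1 mouse was left out, lowest without CTX_CD4 replicate 5), and no block value passed the threshold, which 3 pairs cannot reach. The numbers do not pair the mice, whose same-numbered deviations over V segments correlated at -0.168, 0.187 and 0.0987. Depth limits all absences, since a clonotype below 0.03% of a library can be missed.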
